A study of Sus scrofa with 15 samples.

Results

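The 9 receptor and lectin genes described here mark lipid-associated macrophages and were picked by symbol on the Sscrofa11.1 assembly: TREM2, TYROBP, MSR1, OLR1, CLEC5A, CLEC7A, LGALS3, CLU and CD9. All 9 of 9 were found among the 30477 genes of each count file, and all 9 passed the filter on low counts that left 14918 genes for testing. They were chosen with their differences between the diets already known, so their differences from the control diet are given as a description, without a p-value.

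RNA-seq was run on backfat, the subcutaneous fat over the loin, of 15 Iberian pigs out of 44 in the feeding experiment, with 5 libraries per diet and 1 pig per library. All pigs were of the same breed and about a year old. Compound feeds were restricted, to a lower share of ad libitum energy intake in both olive diets than in the control diet. Level of restriction and olive by-product therefore cannot be told apart. The control (C) pigs received a compound feed without olive by-product, the dry olive pulp (DOP) pigs a compound feed that contained the dried pulp left after oil pressing, and the wet crude olive cake (WCOC) pigs a compound feed without by-product plus free access to a silage of wet olive cake and straw. Each diet was fed in 1 pen, without individual intakes, so diet and pen cannot be told apart, and biopsies were taken forward by RNA quantity and quality.

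Lipid-associated macrophages gather in fat tissue where adipocytes die or overfill, and they take up and digest lipid. TREM2 is their lipid-sensing surface receptor. It has no signalling tail of its own and sends its signal through the adaptor TYROBP, also called DAP12, to the kinase SYK. Around this pair stand scavenger receptors that take up modified lipoproteins (MSR1 and OLR1), C-type lectin receptors (CLEC5A, which also pairs with TYROBP, and CLEC7A, the beta-glucan receptor dectin-1), the sugar-binding galectin LGALS3, the secreted chaperone CLU and the membrane organiser CD9. Of these, LGALS3, CLU and CD9 are also made by many cells other than macrophages.

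The genes lie on 7 chromosomes of Sscrofa11.1, and no span overlaps another annotated gene. TREM2 (ENSSSCG00000039270) is on the minus strand of chr7:36465921-36471509, and TYROBP (ENSSSCG00000002919) on the minus strand of chr6:45309199-45312562. MSR1 (ENSSSCG00000006979) is on chr17:3859903-3939612, CLEC5A (ENSSSCG00000021933) on chr18:8004423-8014390, LGALS3 on chr1:184478639-184496155 and CLU on chr14:11336585-11352569. Of the members, 3 share chromosome 5: OLR1 (chr5:61799356-61809691) and CLEC7A (ENSSSCG00000000648, chr5:61832910-61846441) are neighbours in the lectin gene cluster with a gap of 23218 bp and 0 genes between them, while CD9 (ENSSSCG00000022230, chr5:64420177-64459783) lies 2610485 bp from OLR1.

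The 250 bases before the annotated start of TREM2, TYROBP and CLEC7A are shown, the first 2 because they form the receptor and adaptor pair and CLEC7A because it had the largest log2 fold change in DOP. They were read from the RefSeq genome of Sscrofa11.1, 5′ to 3′ on the strand of the gene, and the capitals mark the core bound by the macrophage factor SPI1, GAGGAA, here found as TTCCTC on the gene's strand. The windows are chr7:36471510-36471759 for TREM2, chr6:45312563-45312812 for TYROBP and chr5:61832660-61832909 for CLEC7A.
TREM2: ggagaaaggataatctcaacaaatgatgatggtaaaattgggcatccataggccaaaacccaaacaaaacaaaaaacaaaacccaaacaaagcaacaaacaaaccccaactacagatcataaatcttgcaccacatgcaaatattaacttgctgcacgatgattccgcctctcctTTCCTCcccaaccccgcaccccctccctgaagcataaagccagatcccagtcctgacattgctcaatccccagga
TYROBP: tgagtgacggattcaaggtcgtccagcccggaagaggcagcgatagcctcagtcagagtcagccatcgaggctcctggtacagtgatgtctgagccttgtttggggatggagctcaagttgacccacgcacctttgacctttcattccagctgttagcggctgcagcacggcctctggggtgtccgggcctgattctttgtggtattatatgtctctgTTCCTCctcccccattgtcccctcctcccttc
CLEC7A: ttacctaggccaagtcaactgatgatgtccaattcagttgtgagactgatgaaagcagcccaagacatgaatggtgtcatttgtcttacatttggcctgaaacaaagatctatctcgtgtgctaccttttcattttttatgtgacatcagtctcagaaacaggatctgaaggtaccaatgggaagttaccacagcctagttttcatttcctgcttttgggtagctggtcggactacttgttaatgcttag

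GAGGAA, searched on both strands, was present in 4 of the 8 member windows searched (TREM2, TYROBP, CLEC5A and LGALS3) and in 22% of 19505 annotated promoters. In these windows it began between 96 bases (LGALS3) and 32 bases (TYROBP) before the start. TGTGGT, the RUNX core, was present for TREM2, TYROBP and CLEC7A and in 13.9% of all promoters. TGANTCA, the AP-1 core, and CACGTG, an E-box, were present in 0 of the 8 windows and in 5.23% and 6.4% of all promoters. No 2 of these matches overlapped, and they are matches of letters, with no binding measured here.

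Library depth ran from 22373715 to 34745218 counts on genes. Counts were scaled by TMM and are given as CPM, the counts of a gene scaled to a common library size. Most values were touched by a spread among the controls, in which C 3 and C 5 were the 2 highest control libraries for all 9 members, and C 5 was the highest for 8 of 9. C 5 was also the only control run on the same flow cell as the DOP libraries, while C 1 to C 4 shared a flow cell with all WCOC libraries. In whole biopsies, fewer cells of a type and less RNA per cell cannot be told apart.

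TREM2, the lipid receptor, was a weakly expressed gene in backfat. Its level was 1.67, 2.22, 8.21, 3.08 and 10.2 CPM in C 1 to C 5, 1.57, 0.453, 0.740, 0.826 and 0.244 CPM in DOP 1 to DOP 5, and 0.589, 2.32, 0.457, 0.762 and 0.708 CPM in WCOC 1 to WCOC 5. Every DOP library lay below every C library, while WCOC 2 reached into the control range. Mean levels were 5.08 ± 3.87 CPM for C, 0.766 ± 0.504 CPM for DOP and 0.967 ± 0.765 CPM for WCOC (SD, n = 5 each). The fitted log2 fold change (log2FC) against C was -2.74 ± 0.62 (SE) in DOP and -2.40 ± 0.61 in WCOC. These levels rest on 7 to 308 counts per library.

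TYROBP, the adaptor, measured 14.8, 10.3, 30.9, 11.3 and 38.3 CPM in C 1 to C 5, 13.8, 10.52, 4.78, 6.34 and 4.42 CPM in the DOP libraries and 6.77, 16.1, 4.54, 4.60 and 10.3 CPM in the WCOC libraries. Both olive diets overlapped the controls. The log2FC against C was -1.41 ± 0.46 in DOP and -1.32 ± 0.46 in WCOC (SE).

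**Figure D1:**
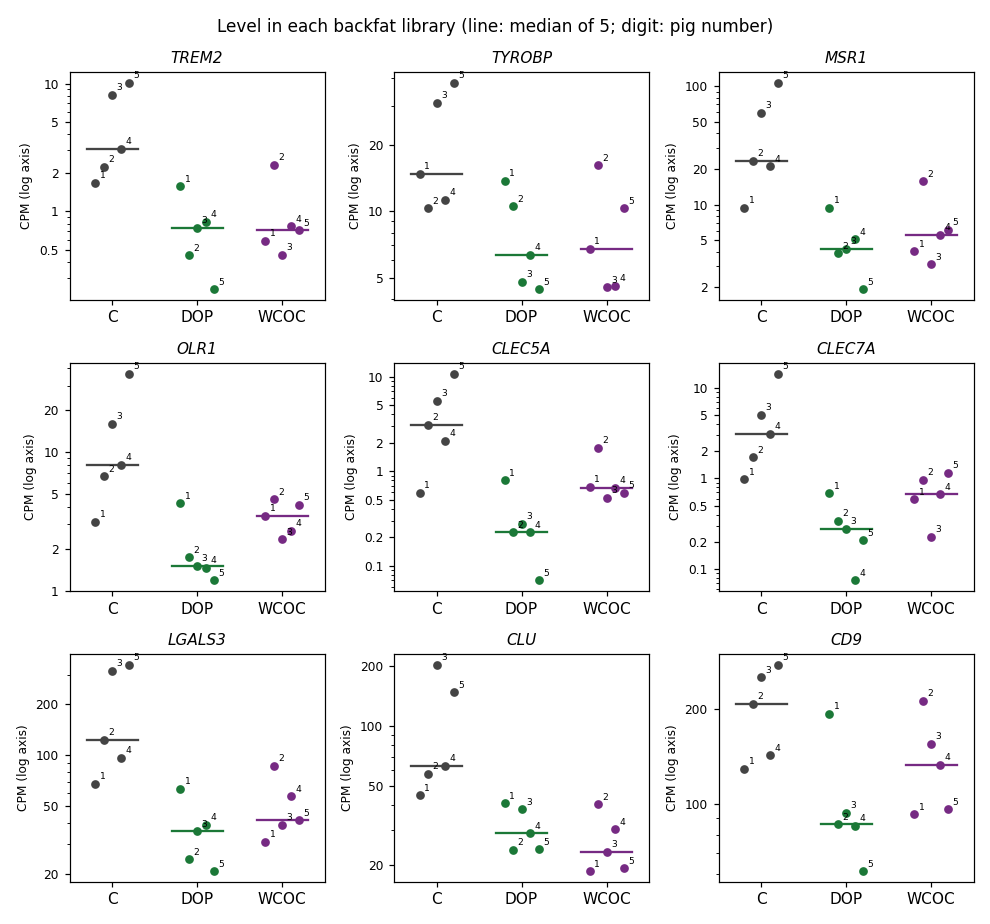
Level of each of the 9 genes in CPM (log axis) in the 5 libraries of each diet, with a line at the median and the pig number beside each point. C 3 and C 5 sit at the top of the controls in every panel, DOP 1 is the highest DOP library in every panel, and WCOC 2 is the highest WCOC library in every panel but CLEC7A.

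MSR1, the class A scavenger receptor for modified lipoproteins, differed by 11.4 times between the lowest and the highest control. It measured 9.41, 23.3, 59.7, 20.99 and 107 CPM in C 1 to C 5, 9.35, 3.89, 4.23, 5.07 and 1.92 CPM in DOP, and 4.02, 15.7, 3.13, 5.52 and 6.13 CPM in WCOC. The highest DOP library lay just below the lowest control, 9.35 against 9.41 CPM, and WCOC 2 lay within the control range. The log2FC against C was -3.18 ± 0.65 in DOP and -2.68 ± 0.63 in WCOC (SE).

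OLR1, the lectin-like receptor for oxidised low-density lipoprotein (LOX-1), is encoded beside CLEC7A. It measured 3.14, 6.66, 15.9, 8.10 and 36.8 CPM in C 1 to C 5, 4.26, 1.73, 1.51, 1.46 and 1.18 CPM in DOP, and 3.47, 4.56, 2.35, 2.70 and 4.16 CPM in WCOC. C 1 fell within both the DOP and the WCOC range, and the other controls lay above both. The WCOC pigs were close to each other, with 1.94 times between the lowest and the highest, against 11.7 times among the controls. The log2FC against C was -2.81 ± 0.57 in DOP and -2.04 ± 0.54 in WCOC (SE).

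The C-type lectin receptors CLEC5A and CLEC7A had the largest differences from C in DOP. CLEC7A measured 0.981, 1.71, 5.03, 3.11 and 14.3 CPM in C 1 to C 5, 0.683, 0.339, 0.278, 0.0751 and 0.209 CPM in DOP, and 0.589, 0.973, 0.228, 0.667 and 1.15 CPM in WCOC. The DOP libraries all lay below the controls, and WCOC 5 reached past C 1. Its log2FC against C was -3.99 ± 0.73 in DOP and -2.80 ± 0.67 in WCOC (SE). CLEC5A, a receptor of myeloid cells, covered 0.588 to 10.8 CPM among the controls, 0.0697 to 0.803 CPM among DOP pigs and 0.522 to 1.76 CPM among WCOC pigs, and C 1 fell within both olive ranges. Its log2FC was -3.81 ± 0.72 in DOP and -2.41 ± 0.66 in WCOC. In DOP both genes were near the limit of detection, with as few as 2 counts in a library.

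LGALS3 is the most abundant lectin of the group. It measured 68.2, 124, 317, 96.6 and 345 CPM in C 1 to C 5, 63.3, 24.3, 35.5, 39.0 and 20.6 CPM in DOP, and 30.7, 87.1, 38.8, 57.3 and 41.3 CPM in WCOC. DOP lay wholly below C, and WCOC 2 was the only WCOC library above C 1. The log2FC against C was -2.38 ± 0.47 in DOP and -1.90 ± 0.46 in WCOC (SE), each from at least 591 counts per library.

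CLU, a secreted chaperone that binds lipid and misfolded protein, was the one member whose controls did not overlap either olive diet. It measured 44.9, 57.5, 203, 63.1 and 147 CPM in C 1 to C 5, 41.0, 23.9, 38.3, 28.9 and 24.04 CPM in DOP, and 18.6, 40.4, 23.4, 30.3 and 19.3 CPM in WCOC. The olive libraries were alike in level and the controls were spread. The log2FC against C was -1.72 ± 0.38 in DOP and -1.97 ± 0.39 in WCOC (SE).

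CD9, a tetraspanin that organises membrane proteins, had the log2FC nearest to 0 of the members in both comparisons with C. It measured 129, 208, 252, 143 and 277 CPM in C 1 to C 5, 194, 86.1, 93.9, 85.4 and 61.1 CPM in DOP, and 92.9, 212, 156, 133 and 96.1 CPM in WCOC. All DOP libraries but DOP 1 lay below all controls, while WCOC 1 and WCOC 5 lay below and the other WCOC libraries within the control range. The log2FC against C was -0.96 ± 0.32 in DOP and -0.55 ± 0.31 in WCOC (SE).

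Per kilobase of annotated exon, a length taken from the RefSeq annotation and not from the one used for counting, LGALS3 (177 ± 122 CPM per kb, SD, n = 5) and CD9 (167 ± 53.9) led in C, and CD9 did not overlap the next gene, CLU (41.1 ± 27.5). TYROBP (36.0 ± 21.6), MSR1 (12.5 ± 11.3), OLR1 (9.10 ± 8.70), TREM2 (5.21 ± 3.97), CLEC5A (5.19 ± 4.68) and CLEC7A (1.99 ± 2.15) followed, and each overlapped the next. On this scale the mean TYROBP level exceeded that of TREM2 in all 3 diets. In DOP and WCOC the order began with CD9, LGALS3, TYROBP and CLU, and CLEC7A was lowest, at 0.125 ± 0.0897 CPM per kb in DOP and 0.285 ± 0.141 in WCOC.

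All 9 members were lower in DOP than in C, with a median log2FC of -2.74 and a range of -3.99 to -0.96. The median of all 14918 genes was 0.01. With limits of 0.58 or more for the size of log2FC and an adjusted p under 0.05, edgeR's quasi-likelihood test called 6 of 9 lower, where 0.55% of all genes were, and TREM2, TYROBP and CD9 were not called. DESeq2, the tool of the study, called all 9 of 9 lower with the same limits, where 1.9% of all genes were. Values did not overlap for 5 members (TREM2, MSR1, CLEC7A, LGALS3 and CLU), where 1.76% of all genes were lower in DOP without overlap. This contrast served to choose the members, and nothing is read from these shares.

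The edgeR calls depended on single libraries. Without C 3, C 5, DOP 2, DOP 3, DOP 4 or DOP 5, each left out alone, 0 of 9 members were called (and at most 4 of all genes), and without C 4 only 3 were called. The direction did not depend on them: in all 10 fits that left out 1 C or DOP library, all 9 members were lower in DOP, and the median log2FC lay between -3.16 and -2.07, the latter without C 5. Flow cell B held all DOP libraries and a single control, so it gave no replicated value of its own. With flow cell as a covariate, the contrast of DOP with C rests on C 5 alone, and all 9 were lower, from -5.50 to -1.41.

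WCOC against C gave the same direction for all 9 members, with a median log2FC of -2.04 and a range of -2.80 to -0.55. In this comparison edgeR called 7 of 9 lower, all but TYROBP and CD9, where 3.93% of all genes were called lower, and DESeq2 called 8 of 9, where 5.09% were. Only CLU had no overlap, where 3.88% of all genes were lower without overlap. These shares, too, belong to a contrast used to choose the members. Leaving out single libraries moved the count to between 1 (without WCOC 1) and 8 (without WCOC 2), with 2 without C 5, 3 without C 3 and 4 without WCOC 3, WCOC 4 or WCOC 5, and all 9 stayed lower in each fit. Within flow cell A, which held 4 controls and all WCOC libraries, all 9 were lower, with a log2FC of -2.05 to -0.42 and a median of -1.78, and 1 was called.

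**Figure D2:**
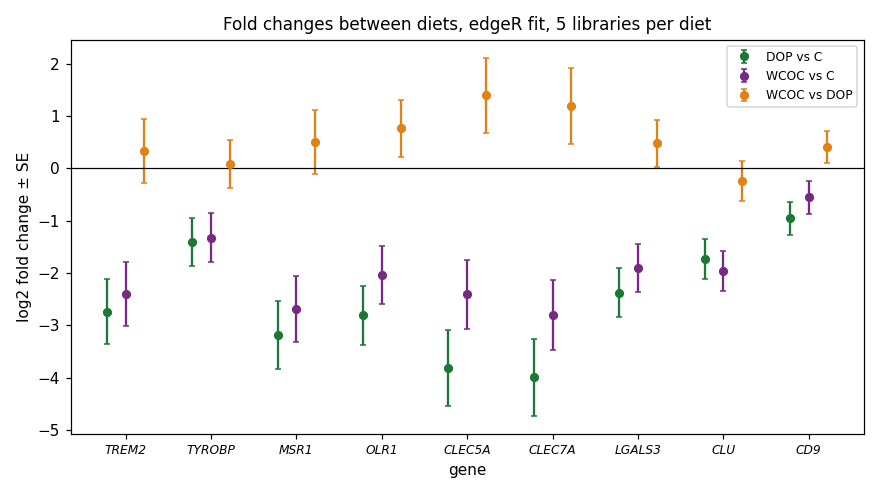
Log2 fold change ± SE of each gene in the 3 comparisons between diets (edgeR fit, 5 libraries per diet). All points against C lie below 0, from -3.99 for CLEC7A in DOP to -0.55 for CD9 in WCOC, and the WCOC against DOP points lie between -0.24 and 1.40.

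The olive diets were then compared with each other, a contrast that was not used to name the genes. It shares its libraries with the contrasts that were, so it is not independent of that choice. No member was called in WCOC against DOP (0 of 9, with 0 at an unadjusted p under 0.05 and 0 by DESeq2), where 7.76% of all genes were called and 28.1% had an unadjusted p under 0.05. Of the 9 members, 8 were higher in WCOC, with a median log2FC of 0.48. This median was 0.20 without WCOC 2, where 4 of 9 (TREM2, TYROBP, MSR1 and CLU) were lower in WCOC, 0.29 without DOP 5 and 0.77 without DOP 1. With flow cell as a covariate it was 1.75 and 0 of 9 were lower. All WCOC libraries were on flow cell A and all DOP libraries on B. The flow cell term therefore rests only on C 5 against C 1 to C 4, and this fit cannot separate flow cell from diet. CLEC5A had the largest value, 1.40 with a 95% interval of -0.12 to 2.94 (adjusted p = 0.217, edgeR). For TREM2 the log2FC was 0.33, with an interval of -0.98 to 1.65 (adjusted p = 0.772, edgeR). CLU alone was lower in WCOC in the fit over all libraries, with a log2FC of -0.24 and an interval of -1.04 to 0.56 (adjusted p = 0.724, edgeR), which turned to 0.43 with flow cell as a covariate. These intervals include no difference as well as differences of more than 1 log2 unit for all 9 members.

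Within diets, the members rose and fell together from pig to pig. After subtraction of the mean of each diet, the 36 pairs had Pearson's r of log2 CPM between 0.51 and 0.96 over the 15 libraries, with a median of 0.80. Without the 2 libraries farthest from the median of the first gene of each pair, the median r was 0.73 and the lowest 0.34. TREM2 and MSR1 were the closest pair (r = 0.96), and CLEC7A and CD9 the least close (r = 0.51). TREM2 and its adaptor TYROBP had r = 0.79, below that of TREM2 with LGALS3 (0.94), CLEC5A (0.91) or CLU (0.87). The neighbouring lectin genes OLR1 and CLEC7A had r = 0.90. These values come from the same libraries, so they share depth and tissue composition, and they carry no test.

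**Figure D3:**
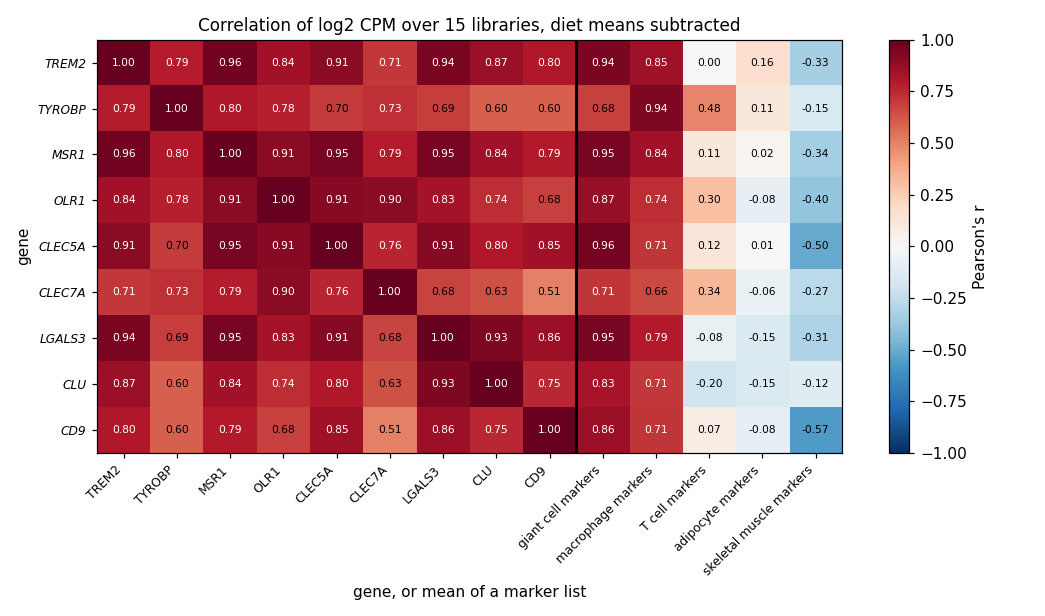
Pearson's r of log2 CPM over 15 libraries after subtraction of diet means, between the 9 genes (left of the line) and between each gene and the mean of 5 marker lists (right of the line). The member pairs run from 0.51 to 0.96, the macrophage column from 0.66 to 0.94, the giant cell column from 0.68 to 0.96 and the adipocyte column from -0.15 to 0.16.

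The tested genes most like TREM2 by this measure were OCSTAMP, a gene of macrophage fusion (r = 0.96, Spearman's rho = 0.91, and r = 0.95 without the 2 farthest libraries), MSR1, the macrophage complement receptor VSIG4 (r = 0.95), SPP1, the secreted phosphoprotein osteopontin (r = 0.95), and LGALS3. TYROBP was instead most like the Fc receptor adaptor FCER1G (r = 0.98) and the macrophage growth factor receptor CSF1R (r = 0.96). MSR1 was most like SLC11A1, a metal transporter of phagosomes (r = 0.98), and ST14 (r = 0.96). OLR1 was most like CD200R1 (r = 0.94) and LCP1 (r = 0.93), CLEC5A like TM4SF19 (r = 0.96) and NYAP2 (r = 0.95), and CLEC7A like GIMAP2 and OLR1 (r = 0.90 for both). LGALS3 was most like FJX1 (r = 0.97) and AQP9 (r = 0.96), and CLU like CAPG (r = 0.95) and LGALS3 (r = 0.93). CD9, whose levels are shared with other cell types, was most like CPQ (r = 0.91) and the collagen gene COL12A1 (r = 0.89).

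The macrophage label was checked against markers of that cell type, and all of the matched ones were detected. Of 10 matched markers (AIF1, C1QA, C1QB, C1QC, CD14, CD163, CD68, CSF1R, MERTK and MRC1; none at 0), 0 were called in DOP against C by edgeR, with a median log2FC of -0.29 and 4 at an unadjusted p under 0.05. These 4 were CD68 (-1.48), AIF1 (-1.21), CSF1R (-0.71) and MERTK (-0.62), and the rest lay between -0.29 (C1QB) and 0.14 (CD163), so the list did not move as 1. In WCOC against C, 4 fell (CD68, CD163, MRC1 and AIF1), where 3.93% of all genes were called lower. The median log2FC of the 10 markers was -1.06. Their summed level covered 272 to 715 CPM in the controls, 206 to 483 CPM in DOP pigs and 160 to 361 CPM in WCOC pigs, and CSF1R was the most abundant. Within diets, the members' r with the marker mean ran from 0.66 (CLEC7A) to 0.94 (TYROBP), with a median of 0.74. With the adipocyte markers it ran from -0.15 to 0.16. With markers of multinucleated giant cells it ran from 0.68 (TYROBP) to 0.96 (CLEC5A), with a median of 0.87. All members but TYROBP had a higher r with the giant cell markers than with the macrophage markers. Which cells of the biopsy made LGALS3, CLU and CD9 was not measured.

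The mean log2 CPM of these 10 markers itself differed from C by -0.42 in DOP and -1.07 in WCOC. Relative to this mean in the same library, on the log2 CPM scale, all 9 members were lower in DOP than in C, with a median difference of -2.02. On this scale 5 members (TREM2, TYROBP, MSR1, CLEC7A and LGALS3) did not overlap, where 0.496% of all genes were lower in DOP without overlap. TREM2 minus the marker mean came to -3.04 ± 0.67 for C, -5.17 ± 0.63 for DOP and -4.21 ± 0.52 for WCOC (SD, n = 5 each). In WCOC the median difference from C on this scale was -0.71, 8 of 9 members were lower, 0 were free of overlap (0.288% of all genes were lower without overlap), and CD9 was higher by 0.51. With the marker mean as a covariate in the edgeR fit, 6 of 9 members were called lower in DOP against C and 0 of 9 in WCOC against C, where 0.389% of all genes were called lower in each. In WCOC against DOP the same fit called 8 of 9 members higher, where 2.1% of all genes were called higher, and CLU had a log2FC of 0.30. This covariate was added after the data were seen. The contrasts with C served to choose the members, so nothing is read from these shares against C.

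**Figure D4:**
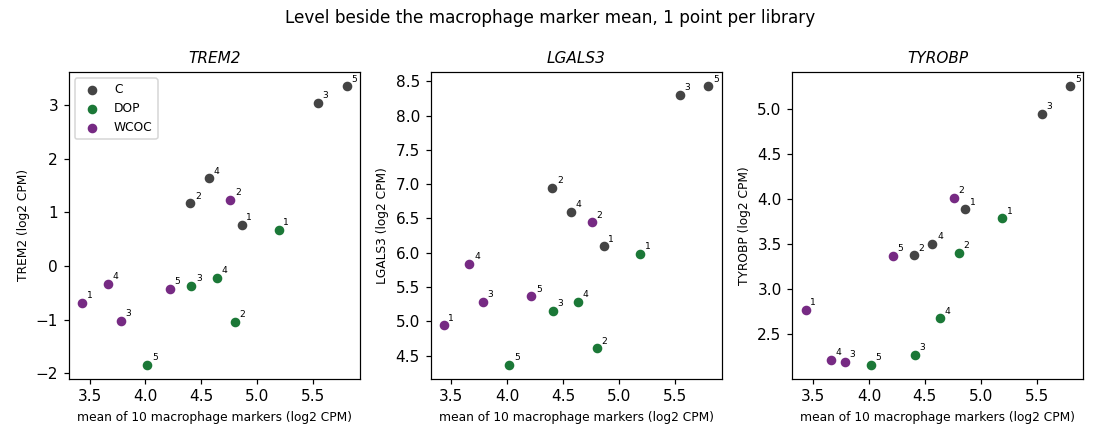
TREM2, LGALS3 and TYROBP (log2 CPM) against the mean log2 CPM of 10 macrophage markers, 1 point per library with its pig number. At marker means between 4.403 and 5.19 the DOP libraries lie below the C libraries for TREM2 and LGALS3, and WCOC libraries extend to lower marker means.

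Markers of multinucleated giant cells moved with the members. Of 4 tested giant cell markers, 3 were called lower in DOP against C, where 0.55% of all genes were. In WCOC against C 4 were called lower, where 3.93% of all genes were. The median log2FC of the 4 was -3.89 in DOP and -2.54 in WCOC. The list was chosen with earlier results of these data known, so nothing is read from these shares. TM4SF19, a membrane protein of such cells, went from 11.2 CPM in C to 0.528 in DOP (log2FC -4.42 ± 0.81, adjusted p = 0.0277, edgeR) and 1.06 in WCOC (-3.40 ± 0.76, adjusted p = 0.0141, edgeR). The summed level of the 5 matched markers covered 5.49 to 62.8 CPM (C), 1.46 to 7.15 CPM (DOP) and 2.45 to 7.60 CPM (WCOC), and none was at 0 in all libraries. The 3 calls in DOP were each lost without C 3, C 5, DOP 2, DOP 3, DOP 4 or DOP 5, while TM4SF19 and ACP5 passed in WCOC in each of 10 fits that left out a library. Of 3 tested skeletal muscle markers, 0 were called against C in either diet by edgeR (1 in DOP and 0 in WCOC at an unadjusted p under 0.05), with sums of 24.98 to 2711 CPM in C, 18.7 to 35666 in DOP and 9.53 to 552 in WCOC. Their median log2FC was 3.50 in DOP and -2.33 in WCOC, and the highest sums were in DOP 5, DOP 2 (8611 CPM) and DOP 4 (4588 CPM). Within diets, the members' r with the muscle marker mean ran from -0.57 (CD9) to -0.12 (CLU). Without the 2 farthest libraries it ran from -0.23 (CLEC5A) to 0.22 (TYROBP). The part of giant cells or of muscle in the members' difference was not tested.

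The other genes of the members' families were tested on the same fit. Their lists were chosen with earlier results of these data known, so nothing is read from the shares called. In DOP against C, 2 of 70 tested family genes were called lower and 0 higher (2.86%), where 0.764% of all genes were called. In WCOC against C, 17 of 70 were called lower and 0 higher (24.3%), where 6.25% of all genes were called. At an unadjusted p under 0.05 (edgeR) were 32 of 70 in DOP and 37 of 70 in WCOC. DESeq2 called 14 and 22 of them, where it called 495 and 1181 of all genes. Below the fold limit, an adjusted p under 0.05 was met by 1 family gene that was higher in DOP (SCARF1), and by 3 that were higher and 2 that were lower in WCOC. The median log2FC of the 70 was -0.19 in DOP and -0.28 in WCOC, against 0.01 and 0.00 for all genes. In WCOC against DOP, 6 of 70 were called (8.57%), 5 lower and 1 higher, where 7.76% of all genes were called.

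The 2 genes called in DOP belong to the other genes of lipid-associated macrophages. SPP1, a secreted matrix protein and cytokine, measured 45.9, 82.5, 482, 105 and 746 CPM in C 1 to C 5, 12.9, 4.07, 8.15, 11.15 and 2.44 CPM in DOP, and 27.2, 79.0, 15.5, 51.4 and 20.5 CPM in WCOC. All DOP libraries lay below all C and all WCOC libraries. It fell in DOP with a log2FC of -5.24 ± 0.84 (adjusted p = 0.0277, edgeR) and in WCOC with -2.92 ± 0.75 (adjusted p = 0.0262, edgeR), and was 2.32 ± 0.75 higher in WCOC than in DOP (adjusted p = 0.0544, edgeR), which missed the threshold. GPNMB, a lysosome-associated glycoprotein, went from 152 ± 106 CPM in C to 24.4 ± 13.1 in DOP (log2FC -2.64 ± 0.48, adjusted p = 0.0277, edgeR) and 43.9 ± 13.7 in WCOC (-1.79 ± 0.47, adjusted p = 0.0269, edgeR; SD, n = 5).

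Both calls in DOP were lost without C 3, C 5, DOP 2, DOP 3, DOP 4 or DOP 5. In WCOC, the list also held falls of CD68, a lysosomal membrane protein of macrophages (from 24.5 ± 16.4 to 5.70 ± 2.46 CPM, SD, n = 5; log2FC -2.11 ± 0.47, adjusted p = 0.0141, edgeR), the lysosomal protease CTSB and the lipid droplet protein PLIN2, so that 5 of 15 genes fell. In DOP, CD68 had a log2FC of -1.48 ± 0.46, CTSB of -1.09 ± 0.25 and PLIN2 of -0.52 ± 0.19, and none passed (adjusted p = 0.132, 0.0567 and 0.187, edgeR). LPL, the lipase that frees fatty acids from lipoproteins and the most abundant of the list, had a log2FC of 0.16 ± 0.16 in DOP and -0.40 ± 0.16 in WCOC (adjusted p = 0.677 and 0.132, edgeR). APOE, the lipid carrier that binds TREM2, had 0.01 ± 0.18 in both (adjusted p = 0.990 and 0.971, edgeR). Which cells of the biopsy made LPL and APOE was not measured.

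Among 12 genes of TYROBP signalling, 0 passed the test in DOP (6 at an unadjusted p under 0.05 by edgeR, median log2FC -0.52) and 2 fell in WCOC (median -0.70). These were the exchange factor VAV1, from 21.9 ± 14.4 CPM in C to 7.82 ± 2.92 in WCOC (log2FC -1.49 ± 0.40, adjusted p = 0.0321, edgeR), and the linker BLNK, from 11.8 ± 7.77 to 3.78 ± 1.43 CPM (-1.65 ± 0.42, adjusted p = 0.0254, edgeR; SD, n = 5). In DOP, VAV1 had a log2FC of -1.51 ± 0.40 and BLNK of -1.12 ± 0.41, and neither passed (adjusted p = 0.0898 and 0.185, edgeR). SYK, the kinase next to TYROBP, had -1.0 ± 0.32 in DOP and -0.76 ± 0.32 in WCOC and did not pass (adjusted p = 0.143 and 0.146, edgeR). ADAM10, a protease that sheds TREM2 and the most abundant of the list, had 0.04 ± 0.09 and 0.14 ± 0.09.

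Of the other receptors of the TREM and CD300 families, 3 were tested. CD300LB fell in WCOC, from 5.55 ± 4.14 to 1.90 ± 0.608 CPM (log2FC -1.55 ± 0.43, adjusted p = 0.0351, edgeR; SD, n = 5), and 0 passed in DOP. Its mean in DOP was 2.01 ± 0.742 CPM (SD), and its log2FC of -1.47 ± 0.43 was close to that in WCOC (adjusted p = 0.114, edgeR). TREM1, 38743 bp from TREM2 on chromosome 7 and known for amplifying inflammation, had mean levels of 0.934 CPM (C), 1.08 CPM (DOP) and 0.946 CPM (WCOC), with log2FC of 0.20 ± 0.41 and 0.01 ± 0.41 against C.

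Among other scavenger receptors, 0 of 11 were called in DOP against C (edgeR), with a median log2FC of 0.05, and in WCOC 5 of 11 fell (STAB1, CD68, SCARA3, CD163 and COLEC12), with a median of -0.74. CD163, the haemoglobin scavenger of resident macrophages, had means of 30.0 ± 11.5 CPM (C), 33.0 ± 11.3 CPM (DOP) and 13.4 ± 6.44 CPM (WCOC) (SD, n = 5). Its log2FC was 0.14 ± 0.32 in DOP against C, -1.16 ± 0.33 in WCOC against C (adjusted p = 0.0375, edgeR) and -1.30 ± 0.33 in WCOC against DOP (adjusted p = 0.0229, edgeR), the last of which was lost without DOP 2, WCOC 1, WCOC 3 or WCOC 4. COLEC12, a collectin, fell from 37.9 ± 9.82 CPM in C to 21.8 ± 7.16 in WCOC (log2FC -0.80 ± 0.23, adjusted p = 0.0417, edgeR; SD, n = 5). SCARF1 was higher than in C by a log2FC of 0.44 ± 0.08 in DOP and 0.55 ± 0.08 in WCOC (adjusted p = 0.0299 and 0.0013, edgeR), under the fold limit. COLEC12, STAB1 and SCARA3 were lower in WCOC than in DOP (-0.85 ± 0.23, -0.86 ± 0.19 and -0.59 ± 0.13, adjusted p = 0.0303, 0.0116 and 0.0139, edgeR). The call of COLEC12 in this contrast passed in only 3 of 10 fits that left out a library. SCARB1, the receptor for high-density lipoprotein and the most abundant, had 0.34 ± 0.12 and 0.05 ± 0.12 against C.

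**Figure D5:**
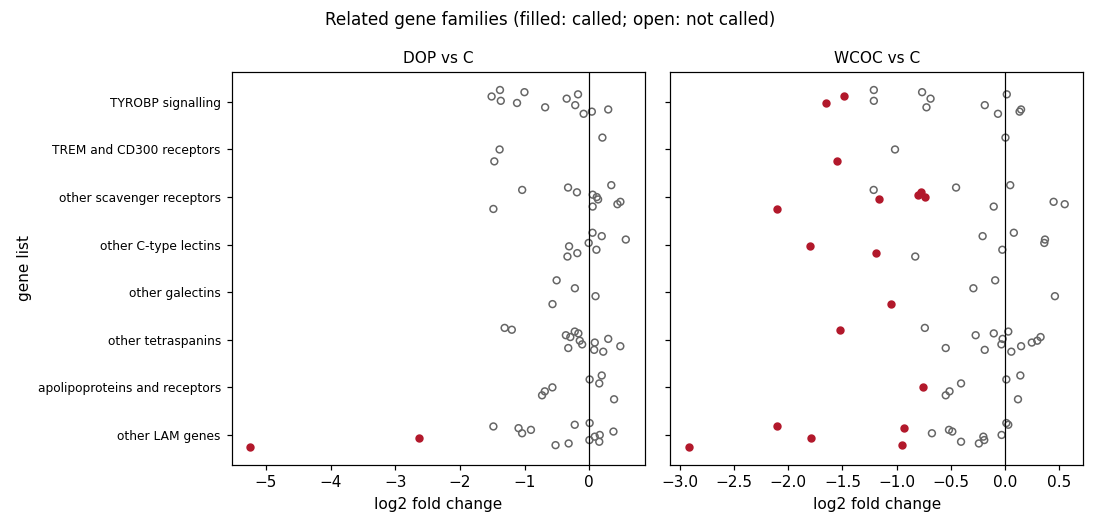
Log2 fold change of the tested genes of 8 related lists in DOP against C (left) and WCOC against C (right), filled where called (2 distinct genes in DOP, 17 in WCOC) and open where not. CD68 is in the lists of scavenger receptors and of lipid-associated macrophage genes and is drawn in both; the 2 filled points in DOP are SPP1 and GPNMB.

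Among 8 other C-type lectins, 0 passed in DOP and 2 fell in WCOC. These were the pathogen receptor CD209, from 24.6 ± 12.5 to 7.05 ± 3.35 CPM (log2FC -1.80 ± 0.41, adjusted p = 0.0158, edgeR), and the mannose receptor MRC1, from 20.7 ± 10.46 to 9.09 ± 3.76 CPM (-1.19 ± 0.35, adjusted p = 0.0423, edgeR; SD, n = 5). In DOP they were at 19.8 ± 9.13 and 18.2 ± 6.02 CPM, with log2FC of -0.31 ± 0.40 and -0.18 ± 0.34. CD209 was also called lower in WCOC than in DOP (-1.49 ± 0.41, adjusted p = 0.0312, edgeR). That call passed in only 4 of 10 fits that left out a library. The most abundant lectin, CLEC3B (tetranectin), had 0.05 ± 0.18 in DOP and 0.08 ± 0.18 in WCOC.

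In the galectin and tetraspanin families, 1 gene each fell in WCOC and 0 passed in DOP. LGALS3BP, a secreted ligand of LGALS3, fell from 39.1 ± 9.49 to 18.9 ± 4.62 CPM (log2FC -1.05 ± 0.20, adjusted p = 0.0061, edgeR). The leukocyte tetraspanin CD53 fell from 28.5 ± 17.97 to 9.92 ± 3.72 CPM (-1.53 ± 0.44, adjusted p = 0.0402, edgeR; SD, n = 5). In DOP, LGALS3BP had a log2FC of -0.57 ± 0.20 and CD53 of -1.20 ± 0.44 (adjusted p = 0.159 and 0.178, edgeR). The most abundant of their families, LGALS1 and CD63, had log2FC of -0.50 ± 0.19 and -0.22 ± 0.14 in DOP and -0.09 ± 0.19 and 0.03 ± 0.14 in WCOC.

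Of the 12 family genes given with their levels as falling in WCOC against C, CD68, CD209 and LGALS3BP passed in each of 10 fits that left out a library. The calls of SPP1, CD163, MRC1 and CD300LB were each lost without C 3, C 5, WCOC 1, WCOC 3, WCOC 4 or WCOC 5, and that of COLEC12 also without C 2. BLNK, VAV1 and CD53 were lost without C 3, C 5, WCOC 1, WCOC 3 or WCOC 4, and GPNMB without C 3, C 5, WCOC 1, WCOC 3 or WCOC 5.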

How the data were processed

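Backfat RNA of 15 pigs (5 per diet) was read in pairs. The authors aligned untrimmed reads to Sscrofa11.1 with HISAT2 (strand-specific setting) and ran HTSeq on Ensembl genes. The deposited values are these raw counts. Tool versions, HTSeq's strand mode and the Ensembl release used are not given in the sources used here. Lines for reads not on genes (23.43% to 32.82% of a library) stayed out of totals.

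Diets come from the labels. Genes were filtered with filterByExpr (14918 kept), scaled by TMM (factors 0.857 to 1.21) and fitted with edgeR 4.0.16 (R 4.3.3) by quasi-likelihood, with 1 mean per diet over all 15 libraries (common dispersion 0.0814) and Benjamini-Hochberg adjustment over all genes. Genes were called where the size of log2FC was 0.58 or more and the adjusted p under 0.05. Log2 CPM used a prior count of 1. Correlations are over diet-centred log2 CPM. Flow cells were read from the run names. On simulated counts for DOP vs C with 200 changed genes of 14918, 78 of 102 genes changed 2-fold and 90 of 98 changed 4-fold were called, with 6 false calls.

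The members and the lists were chosen with earlier results of these data known. Named family genes are the most abundant of each list and up to 3 called genes with the largest log2FC per comparison with C; SYK, TREM1, APOE, CTSB, PLIN2, STAB1, SCARA3 and SCARF1 were added after their values were seen. For likeness, the 5 genes most like TREM2 and 2 most like each other member were named. Of the list genes, some had no matching symbol (for example HCST and CD36) and were not analysed here. The smallest mean chi-square per gene between libraries of a diet was 45.4, so no library was a copy of another of the same diet. Libraries of different diets were not compared in this way. Alternatives were RLE size factors, no filter, DESeq2 1.42.0, a replicate block, flow cell as covariate, fits on the 2 diets compared, flow cell A alone, and each library left out. Precision is limited by 5 pigs per diet and, for CLEC5A and CLEC7A, by counts as low as 2. Protein sequences were not used here, and 1 family gene and 1 promoter window are not reported here.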

Additional observations from a re-analysis of the deposited data

Results flagged for a closer look

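Within each diet, the library farthest from the rest was examined on the log2 CPM scale for 45 genes in 3 diets. In 4 of 135 groups of 5 libraries 1 library stood apart from the others by most of the group's range, where chance flags about 1 in 20 groups. One of these groups concerned a member: CLEC5A in WCOC 2 was at 1.76 CPM, with the next library at 0.687 CPM. In the same library the tetraspanin CD63 was at 496 CPM, with the next at 344 CPM. CLEC3B in DOP 4 was at 404 CPM, with the next at 279 CPM. LPL in WCOC 4 was at 2212 CPM, the lowest of its diet, with the next at 3454 CPM. No control library stood apart by this measure for any member, since C 3 and C 5 were high together.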

How the results depend on the processing

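The direction of all 9 members against C held in each alternative fit but 1: with the macrophage marker mean as a covariate, 7 of 9 were lower in WCOC than in C. The number of members called did not hold. For DOP vs C (6 called) it was 9 by DESeq2, 0 with a replicate block and 0 in a fit on only the 2 diets, and ran from 0 to 7 when single libraries were left out. For WCOC vs C (7 called) it was 8 by DESeq2, 1 with the block, 3 with flow cell as a covariate, 1 on flow cell A alone and 0 with the macrophage marker mean as a covariate, and ran from 1 to 8 with libraries left out. For WCOC vs DOP (0 called) it was 8 with the marker mean as a covariate and 0 in each fit with a library left out.

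Called family genes numbered 14 by DESeq2, 0 with the replicate block, 6 with flow cell, 0 on the 2 diets alone and 4 with the marker mean for DOP vs C (2 called), and 0 to 6 with libraries left out. For WCOC vs C (17 called) they numbered 3 with the block, 6 with flow cell, 11 on the 2 diets, 6 on flow cell A and 0 with the marker mean, and 5 to 21 with libraries left out. For WCOC vs DOP (6 called) they numbered 3 with the block and 0 with flow cell, and 1 to 6 with libraries left out. With the marker mean as a covariate, MRC1, itself 1 of the markers, and CD53 turned to log2FC of 0.021 and 0.0106 in WCOC vs C. The cause of these changes was not tested.

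Over all genes, the calls in DOP vs C (114) became 495 by DESeq2, 0 with the block, 2 on the 2 diets and 67 with the marker mean. Those in WCOC vs C (933) became 473 with the block, 486 on flow cell A and 64 with the marker mean, and those in WCOC vs DOP (1158) became 561 with the block and 1 with flow cell. The replicate numbers do not pair the pigs: r of same-numbered libraries over 15 pairs ran from -0.50 to 0.34, 3 were over 0.1, and 1 of 15 libraries correlated best with its own number. RLE size factors and no filter left the counts within 1.5 times. Low counts limit TREM2, CLEC5A and CLEC7A in DOP, and diet, pen and, in large part, flow cell cannot be told apart.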

Other observations

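Markers of other cell types in the same biopsies are given here as levels, summed over each list and without a test of the sum. Adipocyte markers ran from 10411 to 13565 CPM in C, 13017 to 16815 in DOP and 12368 to 18400 in WCOC, with ADIPOQ, the adipokine adiponectin, the most abundant. Of 6 adipocyte markers, ADIPOQ rose in WCOC against C and LEP, the hormone leptin, was higher in WCOC than in DOP, and 0 passed in DOP against C (edgeR; 2 at an unadjusted p under 0.05). Endothelial markers ran from 719 to 886 CPM in C, 916 to 1251 in DOP and 753 to 1265 in WCOC, with 0 of 3 called in each comparison by edgeR and 2, 2 and 0 at an unadjusted p under 0.05.

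T cell markers reached at most 18.03 CPM in a library (0 of 4 called by edgeR, 0 at an unadjusted p under 0.05 in each comparison). B cell markers were too low to be tested, with CD79A at 0 in all libraries. Neutrophil markers ran from 23.1 to 92.1 CPM in C, 24.9 to 50.3 in DOP and 13.2 to 65.3 in WCOC, with 0 of 3 called by edgeR and 1, 1 and 0 at an unadjusted p under 0.05. Mast cell markers ran from 14.6 to 29.0 CPM in C, 14.5 to 31.4 in DOP and 8.41 to 17.1 in WCOC. HDC, which makes histamine, was called lower in WCOC than in DOP. Of 2 tested mast cell markers, 0 were at an unadjusted p under 0.05 (edgeR) in DOP against C. Against C and against DOP, 2 of 2 were lower in WCOC at an unadjusted p under 0.05 (edgeR). Of 2 dendritic cell markers, XCR1 fell in WCOC against C. In WCOC against DOP, TNNC2 of 3 tested skeletal muscle markers was called lower and KRT1, the only epidermal marker tested, higher, though the diets overlapped for both. KRT1 was at 59.9 CPM in WCOC 5, at 6.47 CPM in WCOC 2 and at 0.196 to 0.571 CPM in the other WCOC libraries, and its call was lost without WCOC 5 or without any 1 DOP library. The call of TNNC2 was lost in 8 of 10 fits that left out a library, that of ADIPOQ in 4 and that of XCR1 in 5, while those of LEP and HDC passed in all 10.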
